A study of Coprinopsis cinerea with 10 samples.

Results

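Laccases, tyrosinases, copper radical oxidases and related oxidoreductases of Coprinopsis cinerea, an ink cap mushroom, were taken by product name. The names searched, in any case, were laccase, multicopper, tyrosinase, radical oxidase, glyoxal oxidase, lysyl oxidase, pyranose, glucose oxidase, glucooligosaccharide oxidase, alcohol oxidase and benzoquinone reductase. They found 52 of the 13320 genes measured: 16 laccases, 4 tyrosinases, 6 copper radical oxidases, 1 lysyl oxidase, 1 benzoquinone reductase, 1 glucose oxidase, 1 glucooligosaccharide oxidase, 7 pyranose dehydrogenases, 11 aryl-alcohol oxidases and 4 other alcohol oxidases. Named so, 27 genes belong to classes that use copper and 25 to classes of flavin enzymes, so "copper oxidases" names only part of the set.

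Transcript levels were measured on 10 one-colour NimbleGen arrays, 2 for each of 5 stages: mycelium, initials of some 2 mm in height, primordia of stage 2 that stood near 1 cm, young fruiting bodies near 2 cm, and the expanded caps of mature fruiting bodies near 4 cm. All stages came from the same dikaryon, of which 50% is of Okayama-7 origin, made by 5 generations of backcrossing to that sequenced monokaryon, about 98.44% homologous to it per the labels and still able to fruit. Plates were kept at 37 °C for mycelium and moved to 25 °C, with 12 h light and 12 h dark, for fruiting. Wherever mycelium is compared with another stage, temperature and the light cycle therefore cannot be told apart from stage. Each replicate was a pool, of 5 plates for mycelium and of 4 to 5 structures for the other stages. The mature stage was sampled as cap tissue alone, so tissue and stage cannot be told apart there.

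Laccases are blue multicopper oxidases that take electrons from phenols and pass them to oxygen, forming water. In mushrooms they are known both for acting on lignin and humus around the hyphae and for crosslinking and pigment formation in fruiting bodies. Tyrosinases, which carry a pair of copper ions, oxidise phenols to quinones on the way to melanin. Copper radical oxidases and the flavin-dependent glucose, sugar and alcohol oxidases reduce oxygen to hydrogen peroxide, which peroxidases use, while quinone reductases and pyranose dehydrogenases return quinones to hydroquinones.

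The values are intensities on a linear scale, and a log2 change is the later stage minus the earlier one, ± SE, from 1 limma fit over all 10 arrays (n = 2 per stage). A gene was called where its Benjamini-Hochberg adjusted p over all genes was at most 0.05. The floor was 4 times the signal of the random-sequence control, and a gene was under it in a stage if neither array exceeded it, which put the floor at 89.4 to 117 intensity units. The median intensity per array was 3268 to 3403, and replicates correlated across genes at 0.997 to 0.999. Replicates of primordia and of mature caps differed 2.53 and 2.61 times as much as the noise between the probe blocks of an array, those of the other stages 1.10 to 1.31 times. The slide, 1 for all arrays, followed stage order, so position on it and stage cannot be told apart. Galectin-1 (CC1G_05003), a lectin of fruiting structures, had a mean log2 level of 11.64 in mycelium, 13.86 in initials, 13.65 in primordia, 13.34 in young fruiting bodies and 9.37 in mature caps, so the marker was present in mycelium and lower in mature caps than in mycelium. Galectin-2 (CC1G_05005) was already at 13.98 in mycelium, with 14.56 in initials, 14.44 in primordia, 14.11 in young fruiting bodies and 12.49 in mature caps. Spo11 (CC1G_03320), a meiosis gene, was under the floor in mycelium. Its mean log2 level was 9.92 in initials, 11.27 in primordia, 11.55 in young fruiting bodies and 9.69 in mature caps. In initials over mycelium the hydrophobins CC1G_02182, CC1G_08314, CC1G_09189 and CC1G_10176 fell (log2 changes -2.67, -2.04, -1.43 and -1.84). Hydrophobin CC1G_13822 rose slightly there (0.09).

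Nearly all oxidase genes varied over development. The median range between a gene's highest and lowest stage was 5.73-fold for the 52 genes and 8.20-fold for the laccases, against 1.92-fold for all genes. The 13320 genes include 1468 that were under the floor in every stage, against 1 of the 52. The F test over the 5 stages called 51 of the 52 genes, beside 89.8% of all genes. The gene not called (aryl-alcohol oxidase CC1G_03945) was under the floor in every stage. Of the other genes, only the tyrosinase-domain gene CC1G_06016 was under the floor in a stage, in primordia and in young fruiting bodies. Close paralogs can share probe signal, and the product numbers repeat, with 3 genes named laccase 5, so each gene is given by its locus tag.

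The mature cap was the most frequent stage of highest level. A gene was assigned to a stage where it was highest and called against each of the other 4 stages. By that count 10 of the 52 genes were highest in mycelium (19.2%, beside 17.8% of all genes), 5 in initials (9.62%, beside 4.81%), 0 in primordia (beside 0.773%), 6 in young fruiting bodies (11.5%, beside 8.30%) and 19 in mature caps (36.5%, beside 24.0%). Among the 16 laccases the counts were 2 in mycelium, 0 in initials, 0 in primordia, 3 in young fruiting bodies and 10 in mature caps (62.5%). Lowest against each other stage were 16 genes in mycelium (30.8%, beside 19.8% of all genes) and 10 in mature caps (19.2%, beside 25.7%). For 7 laccases the lowest stage was mycelium. The count of 5 genes in initials was 3 without either array of initials or without primordium replicate 1.

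**Figure D1:**
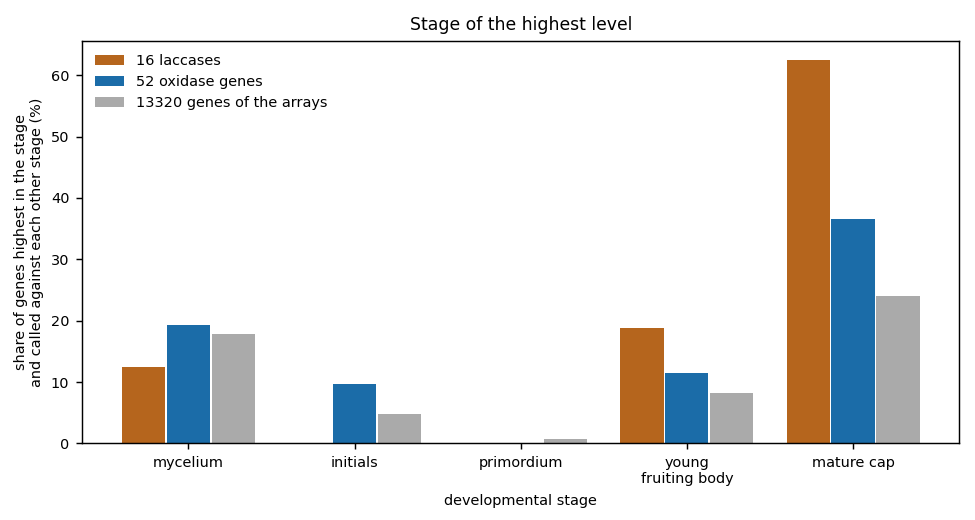
Share of genes, in percent (vertical axis, from 0), whose level was highest in a stage and called against each of the other 4 stages, by developmental stage (horizontal axis). Bars stand for the 16 laccases, the 52 oxidase genes and all 13320 genes; the mature cap holds 62.5% of the laccases, 36.5% of the oxidase genes and 24.0% of all genes, and no oxidase gene was highest in primordia.

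**Figure D2:**
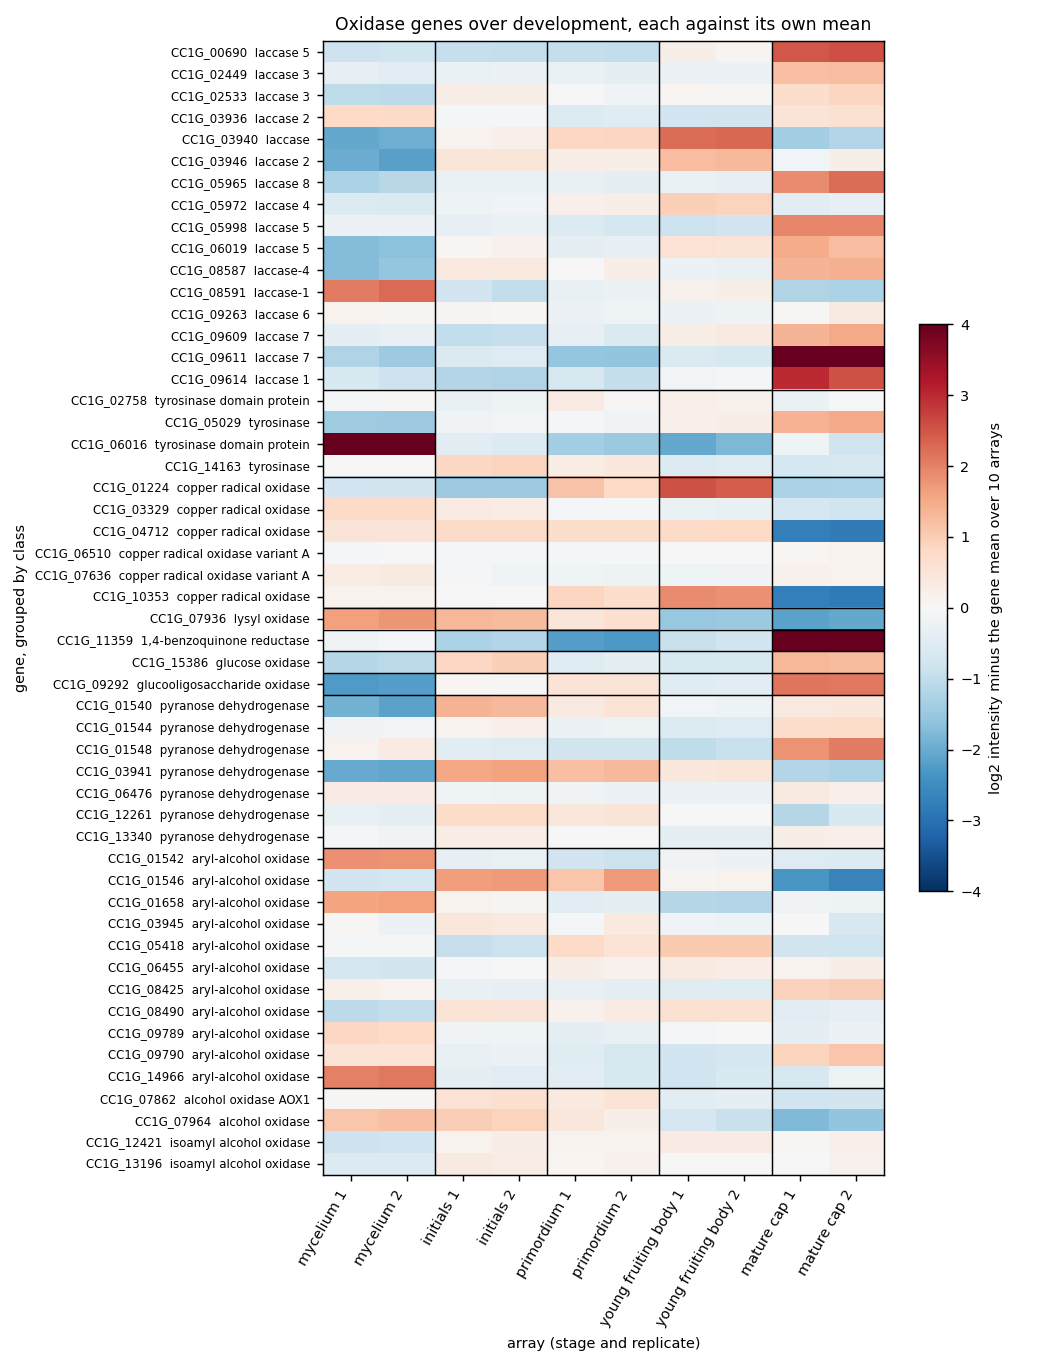
Log2 intensity of each of the 52 genes (rows, grouped by class) on each of the 10 arrays (columns), minus the gene's own mean over the arrays; colours end at -4 and 4, so the deepest shades can stand for larger differences. Mature caps hold most of the dark red of the laccases, while the copper radical oxidases CC1G_10353 and CC1G_04712, the lysyl oxidase and the aryl-alcohol oxidase CC1G_01546 are blue there.

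Of the 16 laccases, 10 were highest in mature caps against each other stage. Among them, the gene with the widest range, 49.5-fold, stayed at or below 209.9 intensity units on every earlier array. Laccase 7 CC1G_09611 had intensities of 129.7 and 109 in mycelium, 198 and 209.9 in initials, 101 and 99.6 in primordia, 198 and 189.8 in young fruiting bodies and 4915 and 5027 in mature caps. It was low from mycelium to young fruiting bodies, with 1 of the primordium arrays at or under the floor, and stood far above the floor on both mature arrays. The rise in mature caps was 25.7-fold against young fruiting bodies (log2 change 4.68 ± 0.0795, adjusted p = 1.64e-08) and 41.9-fold against mycelium. In the order of its levels, initials and young fruiting bodies did not differ beyond the test, followed by mycelium and then primordia.

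Laccase 1 CC1G_09614, with 3 annotated genes between it and CC1G_09611, had 142 and 121 in mycelium, 95.2 and 94.2 in initials, 137 and 109.9 in primordia, 199 and 209 in young fruiting bodies and 1713 and 1260.0 in mature caps. The mature arrays again stood above all others, but they differed from each other more than those of CC1G_09611, and 1 array of initials and 1 of primordia lay at or under the floor. The log2 change in mature caps over young fruiting bodies was 2.85 ± 0.166 (adjusted p = 3.64e-06). Laccase 5 CC1G_00690 followed another course, with 1880.4 and 1892 in mycelium, 1737 and 1709 in initials, 1709 and 1694 in primordia, 3927 and 3602 in young fruiting bodies and 18729.8 and 19864 in mature caps. Initials and primordia did not differ beyond the test and were slightly lower than mycelium. The level was 2.21-fold higher in young fruiting bodies than in primordia and 5.13-fold higher in mature caps than in young fruiting bodies (log2 change 2.36 ± 0.0478, adjusted p = 2.95e-08).

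Laccase 5 CC1G_05998 had 483 and 490.0 in mycelium, 455 and 479 in initials, 387 and 354 in primordia, 314 and 334 in young fruiting bodies and 2231 and 2216 in mature caps. Its level was lower in primordia than in initials and lower again in young fruiting bodies than in primordia, and the mature arrays stood 6.87-fold above young fruiting bodies (adjusted p = 2.34e-08). Laccase 8 CC1G_05965 had 107 and 119 in mycelium, 214 and 212 in initials, 206 and 200.4 in primordia, 214 and 205 in young fruiting bodies and 952 and 1209.5 in mature caps. Initials, primordia and young fruiting bodies did not differ beyond the test in this gene, and mycelium was lower, just above the floor. Mature caps were 9.52-fold above mycelium (log2 change 3.25 ± 0.109).

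Of the 16 laccases, 5 were higher in initials than in mycelium and higher again in mature caps than in initials: CC1G_02533, CC1G_05965, CC1G_06019, CC1G_08587 and CC1G_09611. Of all genes, 37.5% rose in initials over mycelium, and 5074 of 13320 rose in mature caps over initials. The share of all genes with both rises was not counted, so the 5 laccases are only listed. Laccase 5 CC1G_06019 had 516 and 548 in mycelium, 1786 and 1903 in initials, 1333 and 1349 in primordia, 2521 and 2485 in young fruiting bodies and 4792 and 3976 in mature caps. Laccase-4 CC1G_08587 had 133 and 153 in mycelium, 588 and 588 in initials, 449 and 541 in primordia, 379 and 361 in young fruiting bodies and 1148 and 1190.2 in mature caps. Both were lowest on the mycelium arrays and highest on the mature arrays, with log2 changes over mycelium of 1.79 ± 0.0854 in initials and 3.04 ± 0.0854 in mature caps for CC1G_06019. Those of CC1G_08587 were 2.04 ± 0.0978 and 3.03 ± 0.0978 in the same stages. Laccase 7 CC1G_09609, next in the annotation to CC1G_09611, was also highest in mature caps, at 1824 and 2042 against 831 and 916 in young fruiting bodies. The laccases 3 CC1G_02449 and CC1G_02533, chosen for mention after their values were seen, completed the 10, with mature caps 2.75-fold above young fruiting bodies in CC1G_02449 and 1.65-fold above them in CC1G_02533.

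Of the 6 laccases that were not highest in mature caps against each other stage, 3 peaked in young fruiting bodies. The gene named only laccase, CC1G_03940, had 148 and 155 in mycelium, 665 and 698 in initials, 1087 and 1088 in primordia, 2839 and 2979 in young fruiting bodies and 235 and 267 in mature caps. It rose at each step from mycelium to young fruiting bodies, by 4.50-fold, 1.60-fold and 2.67-fold, and in mature caps it was 11.6-fold lower than in young fruiting bodies (log2 change -3.54 ± 0.0641, adjusted p = 2.01e-08). Laccase 2 CC1G_03946 had 105 and 90.4 in mycelium, 578 and 577 in initials, 499 and 495 in primordia, 962 and 1009 in young fruiting bodies and 379 and 487 in mature caps. With 1 mycelium array at or under the floor, it was 5.95-fold higher in initials than in mycelium, and its primordia differed beyond the test neither from initials nor from mature caps. Laccase 4 CC1G_05972, chosen after its values were seen, peaked at 7082 and 6861 in young fruiting bodies, against 2517 and 2444 in mycelium.

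Mycelium held the highest level of 2 laccases. Laccase-1 CC1G_08591 had 3243 and 3633 in mycelium, 452 and 382 in initials, 614 and 650.5 in primordia, 862 and 889.8 in young fruiting bodies and 331 and 315 in mature caps. It fell by 3.05 on the log2 scale in initials (8.27-fold lower than mycelium, adjusted p = 2.28e-07), was higher in young fruiting bodies than in initials, and was lowest in mature caps. Laccase 2 CC1G_03936 had 2776 and 2715 in mycelium, 1543 and 1496 in initials, 1078 and 1122 in primordia, 926 and 947 in young fruiting bodies and 2249 and 2432 in mature caps, with the mature arrays 2.50-fold above young fruiting bodies and close to mycelium (log2 change over mycelium -0.23 ± 0.0450). Laccase 6 CC1G_09263, chosen after its values were seen, varied least, between 484 and 594 in mature caps and 395 and 409 in young fruiting bodies, and mature caps, mycelium and initials did not differ beyond the test.

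**Figure D3:**
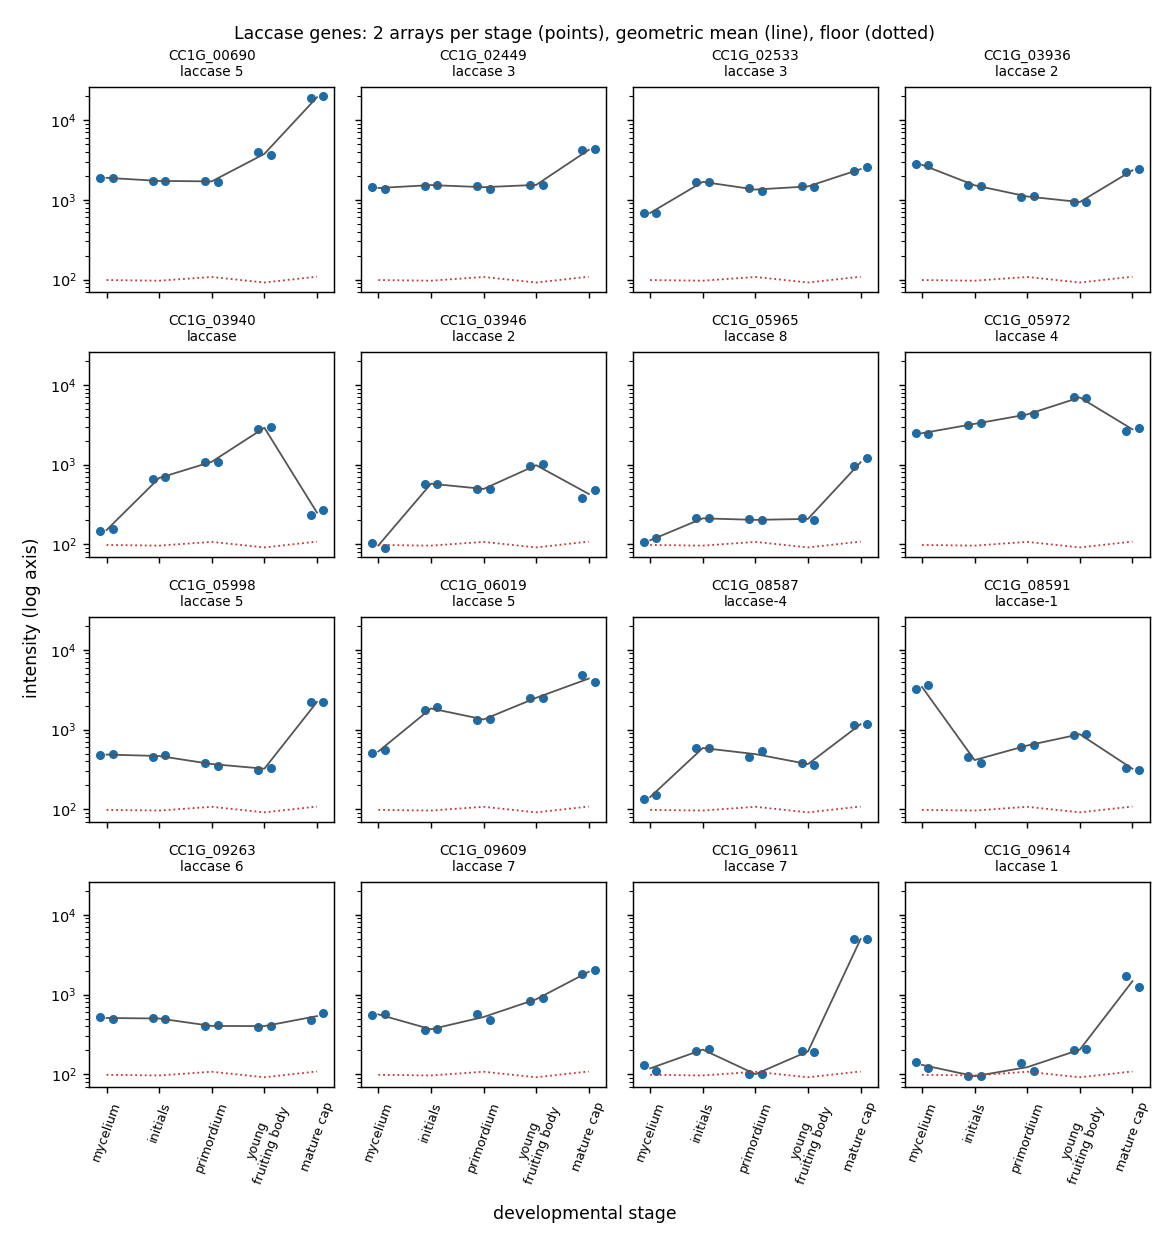
Intensity (vertical log axis, intensity units) of the 16 laccase genes by developmental stage (horizontal axis), with a point per array, a line through the geometric means and the floor dotted. In CC1G_09611 the mature arrays reach 4915 and 5027 while all earlier arrays lie at or below 209.9, whereas CC1G_08591 is highest in mycelium and CC1G_03940 in young fruiting bodies.

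The 4 tyrosinases, enzymes of melanin formation, had their highest mean level in 4 different stages. The tyrosinase-domain gene CC1G_06016 had 4639 and 4417 in mycelium, 163 and 151 in initials, 85.7 and 78.6 in primordia, 53.2 and 63.4 in young fruiting bodies and 197 and 127 in mature caps. It was high on the mycelium arrays alone, and primordia and young fruiting bodies lay under the floor. Initials were 28.9-fold lower than mycelium (log2 change -4.85 ± 0.195, adjusted p = 9.03e-07), and mature caps were at least 1.72-fold higher than young fruiting bodies. Tyrosinase CC1G_05029 had 333 and 327 in mycelium, 814 and 822 in initials, 845 and 806 in primordia, 1019 and 1038 in young fruiting bodies and 2308 and 2534 in mature caps. It rose in initials by 2.48-fold over mycelium and in mature caps by 2.35-fold over young fruiting bodies, and primordia and initials did not differ beyond the test. The groups of arrays did not overlap at either rise.

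Tyrosinase CC1G_14163 had 7128 and 7097 in mycelium, 12629.5 and 13216 in initials, 8722 and 9563 in primordia, 4859 and 4931 in young fruiting bodies and 4355 and 4534 in mature caps. The level was highest in initials, 1.82-fold above mycelium (adjusted p = 5.27e-06), and then fell at each step. The tyrosinase-domain gene CC1G_02758, chosen after its values were seen, had 347 and 285 in primordia, its highest stage, and 224 and 237 in initials, its lowest. No stages next to each other in its order of levels differed beyond the test, although primordia passed against initials (log2 change 0.45 ± 0.122, adjusted p = 0.0222).

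Of the 6 copper radical oxidases, relatives of glyoxal oxidase that make hydrogen peroxide, 3 were lower in mature caps than in young fruiting bodies by over 10-fold. Of all genes, 14.8% fell at least 2-fold at this step, and the share over 10-fold was not counted. Copper radical oxidase CC1G_10353 had 977 and 966 in mycelium, 870.3 and 888 in initials, 1578 and 1417 in primordia, 3252 and 3134 in young fruiting bodies and 133 and 123 in mature caps. Young fruiting bodies were its highest stage and mature caps its lowest, just above the floor, a difference of 24.9-fold (log2 change -4.64 ± 0.0593, adjusted p = 6.42e-09). Copper radical oxidase CC1G_01224 had 621 and 640.4 in mycelium, 385 and 392 in initials, 2357 and 1840.4 in primordia, 6142 and 5665 in young fruiting bodies and 440.1 and 454 in mature caps. It rose 5.36-fold in primordia over initials and 2.83-fold in young fruiting bodies over primordia, and mature caps were 13.2-fold lower than young fruiting bodies. Mature caps and initials, its lowest stages, did not differ beyond the test. The primordium arrays of this gene differed more than those of any other stage.

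Copper radical oxidase CC1G_04712 had 13144 and 13182 in mycelium, 15467 and 15475 in initials, 14972 and 15093 in primordia, 15453 and 15954 in young fruiting bodies and 1386 and 1333 in mature caps. Initials, primordia and young fruiting bodies were level within the test and mycelium was slightly lower, while mature caps stood 11.6-fold below young fruiting bodies (log2 change -3.53 ± 0.0301, adjusted p = 2.57e-09). The remaining genes of the class were chosen for mention after their values were seen. CC1G_03329 fell at every step, to 4401 and 4080.2 in mature caps against 11822 and 11844 in mycelium. The copper radical oxidases variant A changed little: the stage means of CC1G_06510 spanned 1.13-fold and those of CC1G_07636 spanned 1.43-fold. The cap sample is bulk tissue, in which fewer cells of a type and less RNA per cell cannot be told apart.

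Lysyl oxidase CC1G_07936, a copper enzyme known in animals for crosslinking matrix proteins, had 12168 and 13213 in mycelium, 9938 and 9432 in initials, 5466 and 6284 in primordia, 1384 and 1413 in young fruiting bodies and 894 and 951 in mature caps. It fell at each of the 4 steps. In young fruiting bodies it fell by 2.07 on the log2 scale against primordia (adjusted p = 1.27e-05), and mature caps were 13.8-fold lower than mycelium.

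The 1,4-benzoquinone reductase CC1G_11359, a flavin enzyme that reduces quinones with electrons from a nicotinamide cofactor, showed the widest range among the genes not under the floor in any stage, 101-fold. It had intensities of 480.0 and 508 in mycelium, 221 and 235 in initials, 115 and 109.8 in primordia, 290.5 and 314 in young fruiting bodies and 11541 and 11254 in mature caps. The level fell in initials and again in primordia, where 1 array was at or under the floor, rose in young fruiting bodies, and stood 37.7-fold higher in mature caps than in young fruiting bodies (log2 change 5.24 ± 0.0549, adjusted p = 3.99e-09). Mature caps were 23.1-fold above mycelium, and every stage differed from its neighbour in the order of levels.

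Both sugar oxidases were also highest in mature caps. Glucooligosaccharide oxidase CC1G_09292, which oxidises the reducing ends of sugar chains, had 873 and 902 in mycelium, 4351 and 4339 in initials, 6065 and 5925 in primordia, 2948 and 3029.6 in young fruiting bodies and 18392 and 17834 in mature caps. Mature caps were 20.4-fold above mycelium (log2 change 4.35 ± 0.0320, adjusted p = 5.37e-10), and young fruiting bodies dipped below primordia by 2.01-fold. Glucose oxidase CC1G_15386, which turns glucose into gluconolactone, had 1277 and 1314 in mycelium, 4967 and 5370.4 in initials, 1972 and 2129 in primordia, 1793 and 1775 in young fruiting bodies and 7059.7 and 6664 in mature caps. It was high in initials and in mature caps and lower in between, with log2 changes of 2.00 ± 0.0553 in initials over mycelium, -1.33 ± 0.0553 in primordia over initials and 1.94 ± 0.0553 in mature caps over young fruiting bodies.

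**Figure D4:**
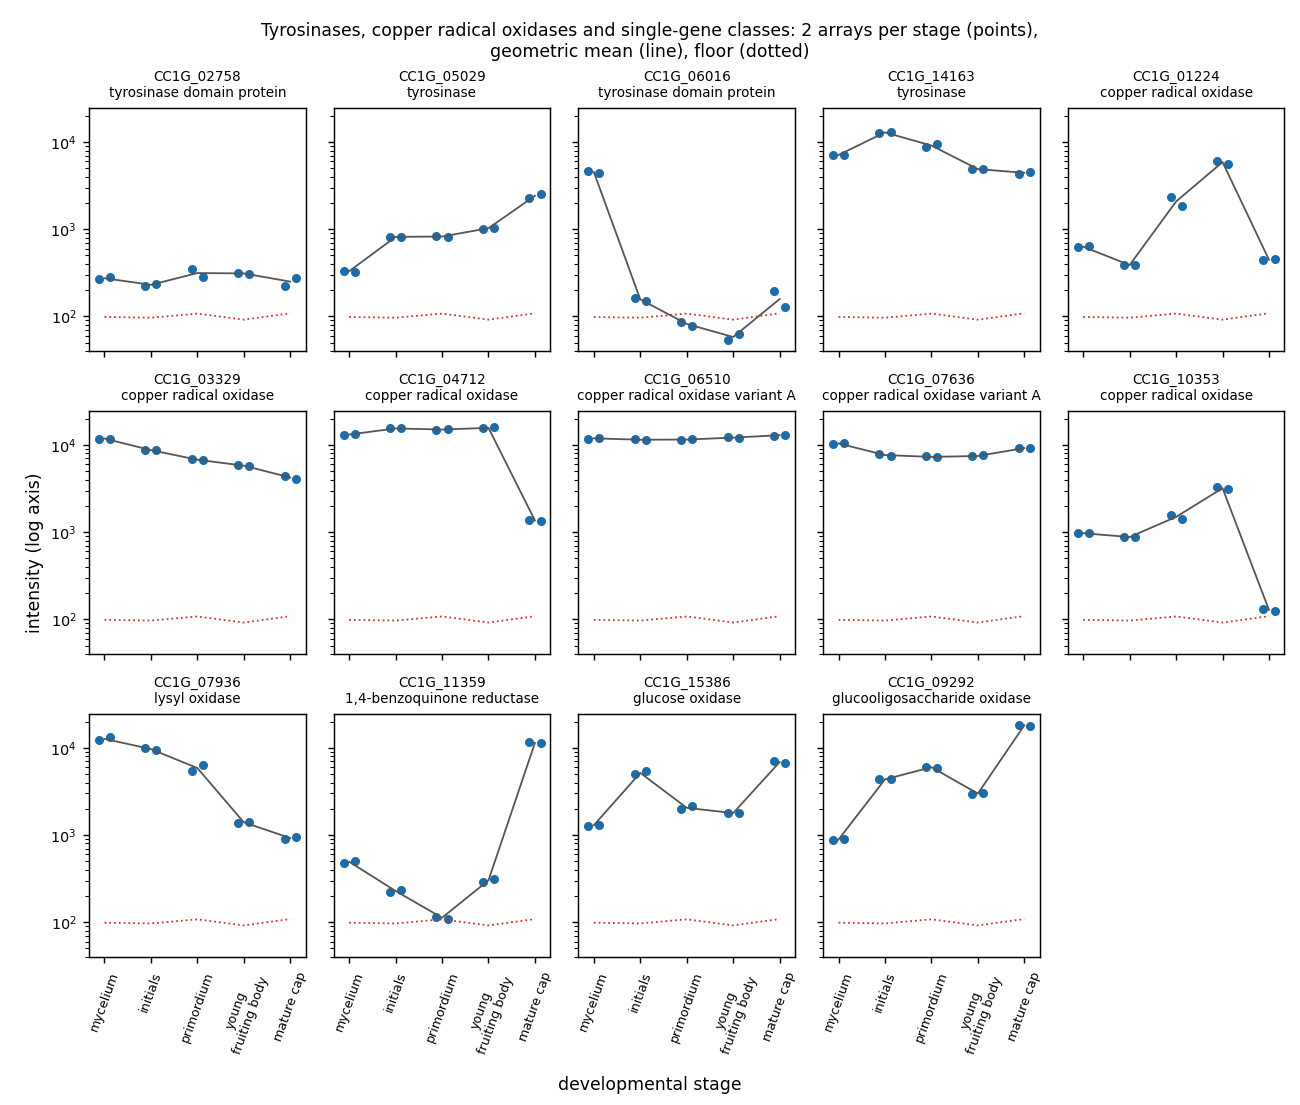
Intensity (vertical log axis, intensity units) of the tyrosinases, copper radical oxidases, lysyl oxidase, benzoquinone reductase, glucose oxidase and glucooligosaccharide oxidase by developmental stage (horizontal axis), with a point per array, a line through the geometric means and the floor dotted. CC1G_10353, CC1G_01224 and CC1G_04712 drop in mature caps, while CC1G_11359 and CC1G_09292 reach their highest levels there.

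Pyranose dehydrogenases, flavin enzymes of litter-degrading mushrooms that oxidise sugars with quinones as acceptors, had their highest level in different stages: 3 of the 7 were highest in initials against each other stage (beside 4.81% of all genes) and 2 in mature caps (beside 24.0%), too few to rank these stages. CC1G_03941 had 1097 and 1055 in mycelium, 13132 and 13566 in initials, 10170.3 and 11058 in primordia, 5966 and 6216 in young fruiting bodies and 1975 and 1839 in mature caps. It was 12.4-fold higher in initials than in mycelium (log2 change 3.63 ± 0.0555, adjusted p = 1.57e-08) and then fell at each of the 3 later steps. CC1G_01540 had 216 and 184 in mycelium, 2092 and 2006 in initials, 1037 and 1177 in primordia, 742 and 708 in young fruiting bodies and 1037 and 1076 in mature caps, a rise of 10.3-fold in initials over mycelium, and its primordia and mature caps did not differ beyond the test. CC1G_13340, chosen after its values were seen, was the other gene highest in initials, at 6586 and 6594 against 5060.4 and 4883 in mycelium. Its mature caps were only slightly lower than initials, at 6318 and 6163.

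The pyranose dehydrogenases highest in mature caps were CC1G_01548 and CC1G_01544. CC1G_01548 had 495 and 559 in mycelium, 330.0 and 315 in initials, 270.1 and 269 in primordia, 220.1 and 244 in young fruiting bodies and 1574 and 1843 in mature caps. Its mature arrays stood 7.35-fold above young fruiting bodies (adjusted p = 2.13e-07). Primordia of this gene differed beyond the test neither from initials nor from young fruiting bodies. CC1G_01544 had mature arrays at 3101 and 3158 against 1307 and 1329 in young fruiting bodies. The remaining genes, CC1G_06476 and CC1G_12261, were chosen after their values were seen and had no highest stage that passed against all others. Stage means spanned 1.49-fold in CC1G_06476 and 3.01-fold in CC1G_12261.

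Aryl-alcohol oxidases, which supply hydrogen peroxide by oxidising benzyl alcohols, were highest in mycelium against each other stage in 4 of 11 genes, beside 17.8% of all genes. CC1G_14966 had 1301 and 1388 in mycelium, 245 and 243 in initials, 241 and 213 in primordia, 186 and 209.6 in young fruiting bodies and 206 and 281 in mature caps, and the stages after mycelium did not differ beyond the test. CC1G_01542 had 11785 and 11524 in mycelium, 2629 and 2750.0 in initials, 1938 and 1823 in primordia, 2991 and 2773 in young fruiting bodies and 2292 and 2262 in mature caps. CC1G_01658 had 4369 and 4473 in mycelium, 1589 and 1563 in initials, 1048 and 1123 in primordia, 660.1 and 646 in young fruiting bodies and 1322 and 1255 in mature caps. In these genes the mycelium arrays stood above all others, and initials were 5.51-fold lower in CC1G_14966, 4.33-fold lower in CC1G_01542 and 2.80-fold lower in CC1G_01658. The fourth, CC1G_09789, had 2926 and 2838 in initials against 5684 and 5525 in mycelium.

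Other aryl-alcohol oxidases peaked later. CC1G_01546 had 532 and 561 in mycelium, 2918 and 2992 in initials, 1976 and 2946 in primordia, 991 and 999.7 in young fruiting bodies and 181 and 142 in mature caps. Initials and primordia, whose arrays differed from each other, were high, and mature caps were 6.21-fold lower than young fruiting bodies (log2 change -2.63 ± 0.189, adjusted p = 1.12e-05). CC1G_05418 had 2862 and 2827 in mycelium, 1553 and 1622 in initials, 4939 and 4288 in primordia, 5999.6 and 6064 in young fruiting bodies and 1727 and 1694 in mature caps, a rise of 2.90-fold in primordia over initials after which it fell by 1.82 on the log2 scale in mature caps against young fruiting bodies. CC1G_09790, the direct neighbour of CC1G_09789, was highest in mature caps, at 1161 and 1348 against 910.1 and 917 in mycelium. CC1G_08425, also highest in mature caps, and CC1G_06455 and CC1G_08490, both lowest in mycelium, were chosen after their values were seen. Stage means spanned 2.73-fold in CC1G_08425, 2.08-fold in CC1G_06455 and 3.04-fold in CC1G_08490.

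Of the 4 other alcohol oxidases, CC1G_07964 fell through most of development and CC1G_07862 fell after primordia. Alcohol oxidase CC1G_07964 had 3472 and 3645 in mycelium, 3144 and 2967 in initials, 2187 and 1890.2 in primordia, 1007 and 857 in young fruiting bodies and 475 and 540.2 in mature caps. It fell at each step from initials on and was 7.02-fold lower in mature caps than in mycelium (adjusted p = 3.36e-07), while mycelium and initials did not differ beyond the test. The alcohol oxidase AOX1 CC1G_07862, named for a methanol oxidase of yeasts, and the isoamyl alcohol oxidases CC1G_12421 and CC1G_13196 were chosen after their values were seen. AOX1 was highest at 12337 and 12784 in initials and 10831 and 11977 in primordia, which did not differ beyond the test. It then fell to 6073 and 6395 in young fruiting bodies and to 4694 and 4971 in mature caps, its lowest stage. Both isoamyl alcohol oxidases were lowest in mycelium and differed between lowest and highest stage mean by 2.22-fold in CC1G_12421 and 1.82-fold in CC1G_13196.

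In initials over mycelium 24 of the 52 genes rose (beside 37.5% of all genes) and 20 fell (beside 33.7%), so that 44 were called (84.6%, beside 71.1%). Of the 16 laccases 8 rose and 5 fell, of the 7 pyranose dehydrogenases 5 rose and 2 fell, and both sugar oxidases rose. Of the 11 aryl-alcohol oxidases 3 rose and 7 fell. At least 2-fold, 14 rose (beside 9.01% of all genes) and 6 fell (beside 10.9%). The rises of that size were 5 laccases, 3 pyranose dehydrogenases, 2 aryl-alcohol oxidases, the glucose and glucooligosaccharide oxidases, tyrosinase CC1G_05029 and an isoamyl alcohol oxidase. The falls were 3 aryl-alcohol oxidases, laccase-1 CC1G_08591, the tyrosinase-domain gene CC1G_06016 and the benzoquinone reductase. The median log2 change was 0.26 over the 16 laccases, -0.80 over the 11 aryl-alcohol oxidases and 0.02 over all genes.

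In primordia over initials 10 genes rose (beside 23.5% of all genes) and 23 fell (beside 24.5%; 33 of 52, 63.5%, beside 48.0% of all genes), of which 2 rose at least 2-fold (beside 2.23%) and 3 fell at least 2-fold (beside 1.72%). The rises were copper radical oxidase CC1G_01224 and aryl-alcohol oxidase CC1G_05418. The falls were glucose oxidase, laccase 7 CC1G_09611 (log2 change -1.02 ± 0.0795) and the benzoquinone reductase CC1G_11359 (-1.02 ± 0.0549). Without initials replicate 2 the changes of CC1G_09611 and CC1G_11359 were both -0.98, so that 3 genes passed 2-fold and no laccase among them. With the replicates of mycelium, initials and young fruiting bodies averaged, 16 genes were called in place of 33.

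Young fruiting bodies over primordia showed 18 genes that rose (beside 24.0% of all genes) and 18 that fell (beside 24.8%; 36 of 52, 69.2%, beside 48.8% of all genes). At least 2-fold, 5 rose (beside 2.58%) and 4 fell (beside 1.99%). The rises were copper radical oxidases CC1G_01224 and CC1G_10353, the benzoquinone reductase, laccase CC1G_03940 and laccase 5 CC1G_00690. The falls were lysyl oxidase, aryl-alcohol oxidase CC1G_01546, alcohol oxidase CC1G_07964 and glucooligosaccharide oxidase. Among the laccases 9 rose and 3 fell, with a median log2 change of 0.59 beside -0.01 over all genes. With the same replicates averaged, 21 genes were called in place of 36, and CC1G_01546, whose primordium arrays differed, had an adjusted p of 0.0724.

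Of the 4 steps, the last had the most genes called. In mature caps over young fruiting bodies 27 genes rose (beside 38.3% of all genes) and 22 fell (beside 40.7%; 49 of 52, 94.2%, beside 79.0% of all genes), of which 18 rose at least 2-fold (beside 12.3%) and 10 fell at least 2-fold (beside 14.8%). The 18 include CC1G_06016, for which only a lower bound of 1.72-fold is known. Of the 16 laccases 9 rose and 4 fell at least 2-fold, and 3 of the 6 copper radical oxidases fell by that much. The median log2 change was 1.23 over the laccases, -1.99 over the copper radical oxidases and 0.02 over all genes. The copper radical oxidases were split, with 4 lower and 2 higher. Their median lies between the 3 large falls (-4.64, -3.72 and -3.53) and the small changes of the rest, so it describes no single gene.

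Across the whole course, mature caps over mycelium, 29 genes rose (beside 40.7% of all genes) and 19 fell (beside 40.0%; 48 of 52, 92.3%, beside 80.7% of all genes). At least 2-fold, 17 rose (beside 14.8%) and 12 fell (beside 17.0%), and 11 of the 17 were laccases. The laccases had a median log2 change of 1.98, beside 0.03 over all genes, with 13 higher, 2 lower and CC1G_09263 not called. The 27 genes of copper-using classes had 12 rises and 6 falls of at least 2-fold, and the 25 of flavin classes had 5 rises and 6 falls. Within the copper-using classes the rises were nearly all laccases, with 11 rises and 1 fall. The copper radical oxidases had 0 rises and 3 falls, the tyrosinases 1 and 1, and the lysyl oxidase 0 and 1. Mature caps and mycelium also enter the 4 steps, so this comparison is no separate evidence of them.

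With at most 5 annotated genes between members, 19 of the 52 genes fell into 6 neighbourhoods. The longest alternated pyranose dehydrogenases CC1G_01540, CC1G_01544 and CC1G_01548 with aryl-alcohol oxidases CC1G_01542 and CC1G_01546. In it CC1G_01542 was highest in mycelium, CC1G_01540 in initials, and CC1G_01544 and CC1G_01548 in mature caps, while initials and primordia shared the highest level of CC1G_01546. Another held laccases CC1G_03936, CC1G_03940 and CC1G_03946, pyranose dehydrogenase CC1G_03941 and aryl-alcohol oxidase CC1G_03945. There CC1G_03936 was highest in mycelium, CC1G_03941 in initials and CC1G_03940 and CC1G_03946 in young fruiting bodies.

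In the smaller neighbourhoods, laccases CC1G_08587 and CC1G_08591, with 3 genes between them, changed in opposite directions in mature caps over mycelium, with a log2 change of 3.03 for CC1G_08587 and -3.41 for CC1G_08591. The tyrosinase-domain gene CC1G_06016 and laccase CC1G_06019, with 2 genes between them, did likewise, with a log2 change of -4.84 for CC1G_06016 and 3.04 for CC1G_06019. The 3 laccases CC1G_09609, CC1G_09611 and CC1G_09614 were each highest in mature caps against every other stage, while of the aryl-alcohol oxidases CC1G_09789 was highest in mycelium and CC1G_09790 in mature caps.

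**Figure D5:**
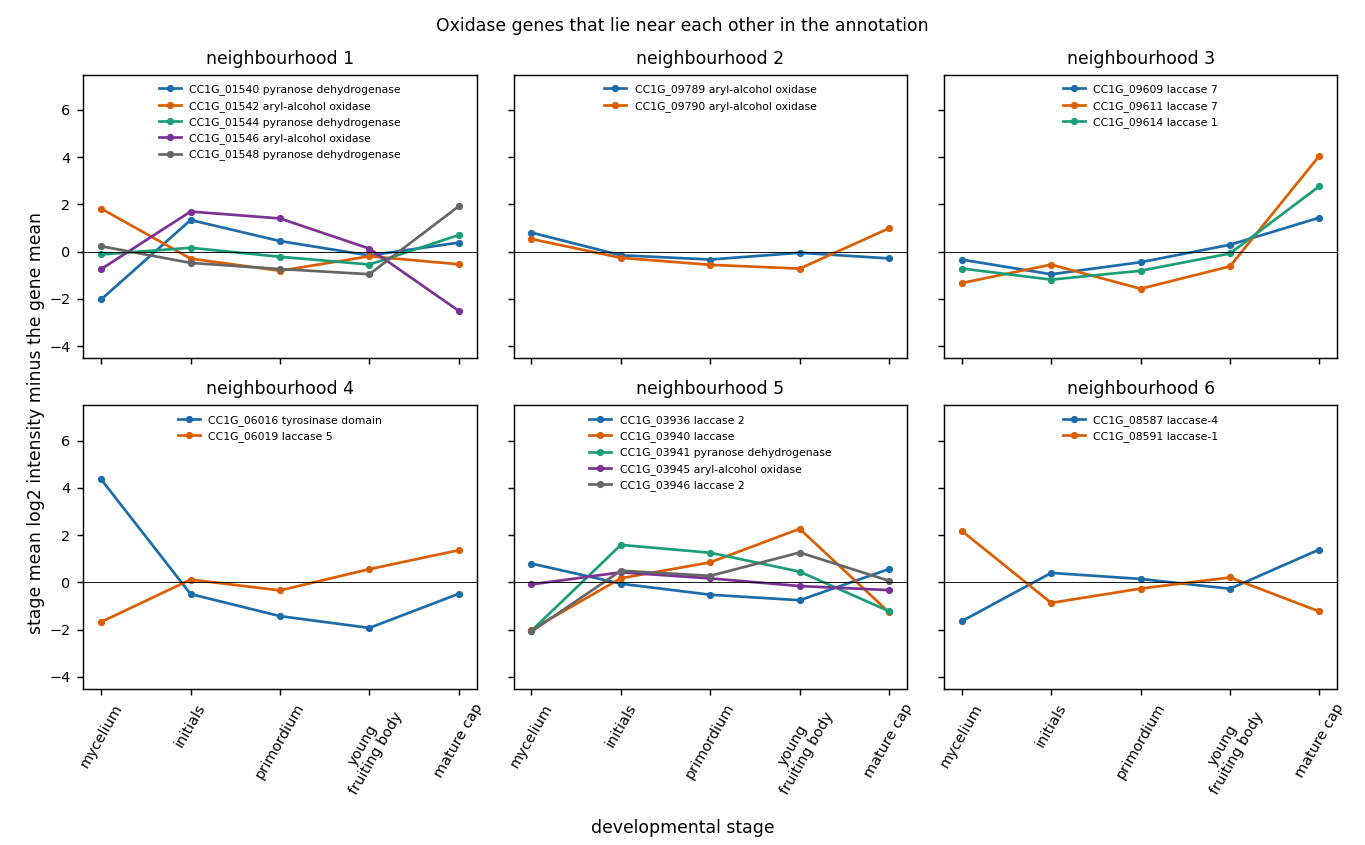
Stage means of log2 intensity minus each gene's mean (vertical axis) by developmental stage (horizontal axis) for the 19 genes in 6 neighbourhoods, a line per gene. Lines cross in most panels, as CC1G_08587 and CC1G_08591 do, while CC1G_09609, CC1G_09611 and CC1G_09614 all peak in mature caps.

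Other genes that bind or supply copper or handle peroxide were listed by product name. Of 8 genes named for copper, 4 of them amine oxidases, 3 rose and 4 fell in mature caps over young fruiting bodies, beside 79.0% of all genes called there, with a median log2 change of -0.15 beside 0.02 over all genes. The copper transporter CC1G_02223 rose by 2.22 ± 0.0695 (adjusted p = 1.78e-07), and the copper homeostasis gene cutC CC1G_06578 had a log2 change of -3.70 ± 0.0802. That of the copper amine oxidase CC1G_07935 was -3.59 ± 0.0848. The other copper transporter, CC1G_13609, and the copper-pumping ATPase CtaA CC1G_00830 were called with small log2 changes, 0.20 ± 0.0387 for CC1G_13609 and 0.21 ± 0.0297 for CC1G_00830. These genes were chosen from the list after their values were seen.

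Of 11 peroxidases and catalases, 9 fell (beside 33.7% of all genes) and 2 rose (beside 37.5%) in initials over mycelium. At least 2-fold, 5 fell (beside 10.9%), and the median log2 change was -0.54 beside 0.02 over all genes. In mature caps over young fruiting bodies 5 rose (beside 38.3% of all genes) and 6 fell (beside 40.7%), and the 5 rises and 1 of the falls passed 2-fold, with the peroxidase CC1G_02104 among the rises although it was under the floor in both stages. Of 7 other genes listed by name as possible flavin oxidoreductases, 4 rose and 3 fell at the same step, with a median log2 change of 0.90. The 3 aryl-alcohol dehydrogenases among the 7 were taken in by name alone and need not be flavin enzymes, so these values are not those of flavin enzymes alone. The 2 ferric reductases, listed as iron uptake partners of multicopper ferroxidases, both fell by little at that step, with a median log2 change of -0.14.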

How the data were processed

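Total RNA of 5 stages, 2 biological replicates each, was labelled with Cy3 and hybridised to custom NimbleGen arrays, per the labels and the series design. The authors deposited linear intensity values per gene and block, summarised by the robust multi-array average according to their names. Each of the 52 genes had 5 probes in each of 2 blocks, per the file headers. For the software, its settings and the genome build, nothing was given in the sources used here. In a second table, of the whole series and 13304 genes, the authors' intensity equalled the geometric mean of the blocks (largest relative difference 4.98e-08%).

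Per array, the deposited values of both blocks were taken to log2 and averaged, with no pseudocount, filter or further normalization. The model was limma 3.58.1 (lmFit, eBayes) under R 4.3.3, with stage alone and 5 residual degrees of freedom, fitted to all 10 arrays. It gave 10 pairwise contrasts and an F test, called at a Benjamini-Hochberg adjusted p of 0.05 over all 13320 genes. p-values rest on the spread between replicates pooled over the 5 stages, not on that of the 2 stages compared. The median log2 difference between replicates was 0.067 in primordia and 0.072 in mature caps, against 0.038 to 0.043 in the other stages. In comparisons with primordia or mature caps the p-values can therefore be too small. The fit was tested on simulated data. Folds against stages under the floor are lower bounds, and that rule was set after the data were seen. The number of arrays limits the precision.

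The members, classes and companion lists were chosen with earlier results of these data known. The rule for named genes took, per comparison, the 6 largest rises and falls among genes called at least 2-fold whose arrays do not overlap, then the 3 widest ranges per class, all genes of classes of 3 or fewer, and genes near another member. It named 35 genes, and the other 17 are named as chosen after their values were seen. Classes, roles and lists rest on product names of the array design, which can be old. Neighbours came from the RefSeq annotation of assembly CC3, in which 13318 genes and all 52 members matched by locus tag, with at most 5 genes between. Companion lists held product names with copper, metallothionein or ctr (counted only as a whole word, a limit added to the planned list); ferroxidase, iron permease, ferric reductase or high-affinity iron; peroxidase or catalase; and GMC oxidoreductase, choline, cellobiose or aryl-alcohol dehydrogenase.

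The alternatives were each block alone, the authors' series table, quantile normalization, centring on array medians, a filter on dim genes (51 of 52 pass), limma with an intensity trend and robust priors, only the arrays of the stages compared, the replicate number as a block, averaged replicates, and each array left out.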

Additional observations from a re-analysis of the deposited data

How the results depend on the processing

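With 2 arrays per stage, leaving out a stage's array leaves a lone sample that is assumed to vary like the other stages. All alternatives reuse the same arrays, and the gene changes followed here were chosen because they passed in the main fit. Agreement is therefore partly built in and is no independent evidence. The authors' series table held the same values as the main fit for its genes, so it could hardly differ. Of the 1820 values of 91 gene changes (members called at least 2-fold in the 5 comparisons) under all alternatives, 1819 kept their direction and their side of the adjusted p threshold. The exception was CC1G_01546 in young fruiting bodies over primordia (-1.28, adjusted p = 0.0724 with the replicates of mycelium, initials and young fruiting bodies averaged, which differed little more than the noise within arrays).

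Averaging those replicates, which leaves fewer samples, also gave 16 members called in primordia over initials (6 up, 10 down), 21 in young fruiting bodies over primordia (11 up, 10 down) and 2 members highest in initials. Leaving out an array gave 3 to 5 members called at least 2-fold in primordia over initials, with 3 without initials replicate 2, and 3 to 6 members highest in initials. Laccases called at least 2-fold in primordia over initials numbered 0 with block 2 alone and 0 to 1 without an array. In young fruiting bodies over primordia they numbered 4 with block 1 alone and 2 to 3 without an array. Some of the 91 gene changes were just under 2-fold in an alternative. In initials over mycelium the smallest log2 change of CC1G_12421 was 0.956. In primordia over initials that of CC1G_09611 was -0.805 and that of CC1G_11359 was -0.974. In young fruiting bodies over primordia that of CC1G_01546 was -0.990 and that of CC1G_09292 was -0.953. The cause was not tested. The counts of highest stages and of laccases at least 2-fold were added to the alternatives after the data were seen.

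Replicate numbers were not taken to pair the samples in the main fit. The deviations of samples with the same number correlated at -0.02 to 0.50. Only 2 of 10 pairs of stages were under 0.1, and mycelium with initials had the highest value. These correlations are no ground for treating the samples as unpaired, and whether the numbers mark a shared batch was not tested. With the replicate block the counts of members called were 44, 35, 36, 48 and 48 in the 5 comparisons and 50 by the F test, which moved no count of calls by over 1.5 times. Quantile normalization and centring moved the median change of all genes by less than 0.1. Signal near the floor limits CC1G_03946, CC1G_06016, CC1G_09611, CC1G_09614 and CC1G_11359 in their low stages. It was also close to the floor, though above it, for CC1G_05965 in mycelium and CC1G_10353 in mature caps.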
